A study of Equus caballus with 4 samples.

Results

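The array for horse transcripts used here carried 43603 different non-control probes, each a designed oligonucleotide of 60 bases, and 18641 of them had no gene symbol in the deposited annotation: their gene name was a sequence accession, the probe's own name or a LOC number. Among these 18641 probes, 187 had a mean log2 ratio of HMB-treated over control cells of at least 2 over the 4 arrays, with the HMB channel well above background on all 4, and these 187 probes of 116 transcripts or probe sequences are described here. They were chosen by their measured ratio and Cy5 flag, so their ratios are a description and were not tested. The lack of a symbol belongs to the gene name column only: the annotation text of 53 of the 187 probes names a gene.

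The cells were equine satellite cells, the stem cells of skeletal muscle, taken from m. semitendinosus of 6 months old stallions and studied on day 3 of differentiation. HMB-treated cells had received 50 µM HMB (beta-hydroxy-beta-methylbutyrate, a leucine metabolite fed as a supplement) for 24 h and 3 mM H2O2 in the last 1 h, and control cells H2O2 without HMB. HMB-treated cRNA carried the red dye Cy5 and control cRNA the green dye Cy3 on all 4 arrays, with no dye swap, so treatment and dye cannot be told apart. The labels call the arrays biological replicates but give the control as replicate 1 on every array, so the spread between arrays may hold no spread of the control, and the methods select cultures by viability and fusion, so the 4 arrays need not be 4 horses.

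Many of the genes met below belong to the innate immune response. Pattern receptors and cytokine receptors switch on NF-kB, which drives chemokines and adhesion molecules, and interferon signalling, which drives a broad set of antiviral proteins that bind, cut or block viral RNA. Chemokines are small secreted proteins that attract leukocytes, and many sit in clusters of neighbouring, similar genes.

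The sequences shown first are those on which the description turns, each as a stretch of 30 bases of its 60-base probe, 5′ to 3′. The first 4 belong to the transcripts with the largest computed ratios, MNDA and JL639438, and to an uncharacterized protein and a contig that lie in gene clusters described below.
MNDA transcript ENSECAT00000022260, probe bases 1 to 30: gggaatggaaaatggcacaatatcaagtgt
Contig JL639438, probe bases 1 to 30: gggtgtatcatagaatatagtgtatggcct
Uncharacterized protein ENSECAT00000012809, probe bases 1 to 30: tctcatgctgaagctttcagaaccacaatg
Contig JL615952, probe bases 1 to 30: aagtgtgaagacaaggccaccctccatttt
A probe of the CXCL2 transcript holds the AU-rich motif TATTTAT, given in capitals, and further along a stretch that a probe with the symbol CXCL1 also carries, shown all in capitals; the shared run is 39 bases long.
CXCL2 transcript ENSECAT00000010991, probe bases 3 to 32: acgtcagttgtTATTTATtgtagcaatttc
CXCL2 and CXCL1 probes, CXCL2 probe bases 22 to 51: GTAGCAATTTCAGTATGTGGTCAACATGTC
TATTTAT, searched on the probe's own strand, stood in 1 of the 187 probes (0.535%) against 1.18% of all probes, and its core ATTTA in 11 (5.88%) against 7.98%. In base composition the 187 probes had a median of 38.3% G and C, against 43.3% for all probes.

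The 187 mean log2 ratios ran from 2.02 to 7.31 with a median of 3.12. On single arrays the median of the 187 was 3.06, 3.32, 3.26 and 2.94 for replicates 1 to 4, with replicate 4 the lowest array for 120 of them. All 187 were above 0 on every array, and 138 were at or above 2 on every array. The SD over the arrays had a median of 0.31, and 12 probes had an SD above 1. By limma with a Benjamini-Hochberg adjusted p of at most 0.05 and a fold change of at least 1.3, 185 of the 187 passed, in a comparison that called 28.6% of the 24669 tested probes (12.1% as higher); the ratio that chose the probes sets this count. Of all called probes 42.5% were higher, a share that became 55.0% with normexp background correction and loess, 60.1% with loess alone and 63.2% with median centring. The median log2 ratio of all tested probes was -0.07, and the arrays correlated at 0.837 to 0.920 over them.

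Just inside the threshold lay the HELZ2 transcript at a log2 ratio of 2.02, an uncharacterized protein (ENSECAT00000021522) at 2.02 and LOC100054725 at 2.03. Just outside it lay a monocyte cDNA (BM734502) at 1.99, an articular cartilage cDNA (CX601213) at 1.99 and a second NCOA7 probe at 1.96. The cartilage cDNA came near the threshold through replicate 4 alone, with 8.47 there and -0.34 to -0.09 on the other arrays. Among probes that carry a gene symbol, 274 of 24962 (1.10%) met the same 2 conditions, against 187 of 18641 (1.00%) without one.

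In the control channel, 98 of the 187 probes were well above background on all 4 arrays and 59 on none. The other 30 were so on part of the arrays or spots only. Their ratios rest partly on dim Cy3 signals and are given without a bound. For the 59 the Cy3 signal was dim on every array, and whether the scanner software put in substitute values was not checked. Fold changes given for the 59 are therefore bounds, written as at least N-fold. They hold for the deposited background subtraction and were not computed for other background treatments. With normexp background correction and loess, 129 of the 187 probes stayed above a log2 ratio of 1, and the lowest was 0.08. Each bound divides the mean HMB signal by the lowest Cy3 signal well above background on each array, or the probe's own where higher. Where the probe's own signal is used, the bound comes near the computed fold change or equals it. The order of the log2 ratios of the 59 is not relied on. With another call of a detected signal, the significance of Cy3 over its local background, 6 probes were undetected on all arrays.

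Tiled probes of 1 sequence entry do not count as separate transcripts. The 20 probes with no description, however, each count as 1 of the 116, tiled ones included, such as 5 on chromosome 22. So counted, 83 of the 116 had 1 probe among the 187, and 19 had 3 or more, which together made up 76 probes. 100 of the 187 shared a run of at least 30 bases with another of them, mostly neighbours shifted by a few bases. 13 probes, each of a different transcript, aligned to more than 60 bases of the genome and so cross a gap in the alignment, with a whole span of up to 2560 bases in JL621100.

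The secreted signals named in the annotation were 5 transcripts with 11 probes. CXCL2, a chemokine that attracts neutrophils, was measured by 4 probes on chromosome 3 with mean log2 ratios of 6.04 to 6.51 (EquCab1, chr3:37672011-37672070 for the highest). That probe read 6.53, 6.96, 6.29 and 6.25 in replicates 1 to 4 (6.51 ± 0.33, SD, n = 4), and Cy3 was well above background on 2 arrays. All 4 arrays lay within 1 log2 unit of each other. Since this transcript shares sequence and position with the CXCL1 probe, signal from the 2 cannot be told apart; the CXCL1 probe read 6.39 ± 0.51 (SD, n = 4; limma adjusted p = 3.36e-06).

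A transcript annotated as CCL2, a chemokine for monocytes (chr11:37331507-37331566), read 3.77, 3.74, 3.62 and 3.22 (3.59 ± 0.25, SD, n = 4), with Cy3 well above background on all arrays. The nearest probe with the symbol CCL2 lay 16995 bases away on the same strand and read 4.28 ± 0.29, and all 6 probes with that symbol were called higher, at 3.54 to 4.30. A monocyte cDNA beside the first (BM734883, chr11:37331129-37331188) read 3.25 ± 0.26. CCL1, a chemokine made by activated T cells, had 3 of its 5 probes among the 187, at log2 ratios of 2.72 to 3.36, and Cy3 was at background for all 3, with the highest at least 2.26-fold higher. Its other 2 probes were at 2.33 and 2.71 but had Cy5 well above background on only 2 arrays.

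PTX3, a soluble pattern recognition protein, read 3.04, 3.20, 3.60 and 3.12 (3.24 ± 0.25, SD, n = 4; chr19:3243968-3244027). FGF18, a growth factor, lay close to the threshold at 2.13 ± 0.17 with all 4 arrays between 1.89 and 2.28. Both were well above background in Cy3 on every array.

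The antiviral and interferon-linked proteins were 11 transcripts with 22 probes. The largest computed ratio was that of a transcript described as myeloid cell nuclear differentiation antigen, MNDA, a nuclear DNA-binding protein of the interferon-inducible PYHIN family (LOC100056988, unplaced sequence, chrUn:171164797-171164856). Its top probe read 7.20, 7.59, 7.48 and 6.96 (7.31 ± 0.28, SD, n = 4), and its 4 probes ran from 6.37 to 7.31. Cy3 was at background on every array for all 4, and the top probe was at least 42.6-fold higher in HMB-treated cells, so its order against JL639438, 142-fold higher with Cy3 well above background on 3 arrays, was not measured. RefSeq (assembly TB-T2T) lists this LOC number as a protein-coding gene apart from its gene MNDA.

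RTP4, an interferon-induced receptor transporter protein that RefSeq now pairs with LOC100068279, read 5.78, 5.11, 4.71 and 4.34 (4.99 ± 0.61, SD, n = 4), at least 16.4-fold higher with Cy3 at background. IFIT1, which binds viral RNA lacking host cap methylation, read 5.24, 5.00, 5.03 and 4.43 (4.93 ± 0.35; chr1:38243065-38243124). IFIT5, of the same family, read 3.06, 3.09, 3.19 and 2.64 (3.00 ± 0.24; chr1:38225382-38225441). Replicate 4 was the lowest array for all 3.

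DHX58, the RNA helicase LGP2 that modulates viral RNA sensing, had 5 probes between 3.62 and 3.86, all tiled over chr11:19586838-19586901. The highest read 3.97, 3.85, 3.98 and 3.63 (3.86 ± 0.16, SD, n = 4), and Cy3 was well above background for all 5. DDX60L, a helicase-like relative of an antiviral sensor, read 3.86 ± 0.37 (chr2:52436476-52436535; at least 3.73-fold), and its other probe was called higher at 1.83 ± 0.28 (adjusted p = 7.95e-05). Contig JL621100 (3.74 ± 0.34, at least 3.79-fold, chr2:52456362-52458921) lay on the same strand downstream of DDX60L. Contig JL620306 (3.86 ± 0.78, at least 3.35-fold, chr2:52711362-52711518) lay much further along that strand. Its nearest symbol was ANXA10, 2463 bases away on the opposite strand and not tested.

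CMPK2, a mitochondrial nucleotide kinase next to the antiviral gene RSAD2, had 3 probes at 2.84 to 2.97 with Cy3 well above background throughout. RSAD2, which encodes viperin, lay 35555 bases away on the other strand and read 5.37 ± 0.48 (SD, n = 4; adjusted p = 5.35e-06). Its Cy3 signal was well above background on 0 of the 4 arrays, so the size of this ratio rests on dim control signals. RNF213, a large ubiquitin ligase, had probes at 3.67 and 2.501 (at least 4.38-fold for the latter), and PARP10, an ADP-ribosyltransferase, read 3.66 ± 0.26, at least 11.2-fold higher. ZC3HAV1, the zinc finger antiviral protein, reached 2.33 ± 0.35 and HELZ2, a helicase and transcriptional coactivator, 2.02 ± 0.42. For ZC3HAV1, Cy3 was well above background on 1 array at this probe and on none at its other probe.

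Among symbol-bearing probes on a list of interferon-induced genes, 46 genes were tested (1 probe each, the brightest) and 44 were called higher and 0 lower, with a median log2 ratio of 3.097; the exceptions were OASL at 0.31 ± 0.23 and CXCL9 at -0.34 ± 0.38. On a list of NF-kB and inflammatory targets, 18 of 21 were called higher and 0 lower, with a median of 3.62; TNF, LCN2 and IRAK2 were not called. These stand beside 12.1% called higher and a median of -0.07 over all tested probes. The lists were chosen with earlier results of these data known, so their shares are a description and not separate support. 5 genes of the first list and 7 of the second were named in the annotation of the 187 probes: CMPK2, DHX58, HELZ2, IFIT1 and IFIT5, and CCL2, CXCL2, GSDMD, ICAM1, NCOA7, PTX3 and SOD2.

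Surface molecules were 4 transcripts with 6 probes, 5 of them at background in Cy3. MR1, which presents vitamin metabolites to T cells (LOC100054060), read 2.88 ± 0.49, at least 2.88-fold higher. ICAM1, an adhesion molecule that binds leukocyte integrins, read 2.31, 2.06, 2.30 and 1.64 (2.08 ± 0.31, SD, n = 4) and was the only one of the 6 probes with Cy3 well above background. CD80, a costimulatory ligand for T cells, had 1 probe among the 187 that read 1.93, 4.43, 1.54 and 2.35 (2.56 ± 1.29), at least 3.97-fold higher. Its other 3 probes gave 1.11 to 1.38 with SDs of 0.23 to 0.34, and all 3 were called higher (adjusted p of 0.000239 to 0.000835). LRRTM1, a synaptic leucine-rich repeat protein, split by array, with 3.47 and 3.75 in replicates 1 and 2 and 1.89 and 1.36 in replicates 3 and 4, at least 2.74-fold higher; the same split recurred in its 2 other tiled probes among the 187.

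Of the other named proteins, PLAC8, a small cysteine-rich protein (LOC100630403, now PLAC8B in RefSeq), was the highest, with 6.24, 6.72, 6.62 and 5.63 (6.30 ± 0.49, SD, n = 4; chr3:45344203-45344262) and a second probe at 5.59. Cy3 was well above background on all 4 arrays for the first. GSDMD, a pore-forming protein of inflammatory cell death, read 2.66 ± 0.24, OGFR, the opioid growth factor receptor, 2.52 ± 0.55, and ABI3BP, an extracellular matrix protein, 2.32 ± 0.31.

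SOD2, the mitochondrial manganese superoxide dismutase, was met in entries for its 3′ untranslated region on both strands of chromosome 31. AY246759 lay on the strand of the SOD2 gene's own probes and read 3.20, 3.34, 3.56 and 2.95 (3.26 ± 0.26, SD, n = 4; chr31:8535200-8535259). AY246758 lay on the opposite strand (chr31:8535323-8535382) and read 3.56, 3.15, 3.56 and 3.101 (3.34 ± 0.25), at least 2.61-fold higher with Cy3 at background. The contig JL639864 (chr31:8534082-8534138), 877 bases from the nearest SOD2 probe, read 3.41 ± 0.18. All 10 probes with the symbol SOD2 were called higher, at 2.495 to 3.43. The opposite-strand probe was not well above background in control cells on any array.

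In 16 of the 116 transcripts the array held 38 further probes that were not among the 187. 26 of them were tested, and 22 were called higher (12.1% of all tested probes were), at log2 ratios of 0.48 to 1.99, and 0 lower. Many of the 38 share at least 30 bases with a probe of the 187 and so read the chosen sequence again. Their count is therefore not separate from the choice. The 4 not called were 3 probes of NCOA7 and 1 of DN504031, at limma adjusted p of 0.0519 to 0.802. The other 12 missed the filter on dim probes and lay between 0.52 and 2.92.

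NCOA7, a coactivator with long and short isoforms, read differently at its 2 measured positions. At chr10:67611407-67611466 the probe read 2.16, 2.08, 2.74 and 2.17 (2.29 ± 0.30, SD, n = 4), and the probe directly before it read 1.96 ± 0.21 (adjusted p = 2.82e-05). At chr10:67538917-67538976, upstream on the same strand, the probe read -0.20, -0.11, 0.03 and 0.06 (-0.06 ± 0.12; adjusted p = 0.548), and 2 probes tiled with it gave -0.02 and -0.08. The 2 positions did not overlap on any array.
NCOA7 downstream probe, bases 1 to 30: atactttccaaaaaggaagacttcatagtt
NCOA7 upstream probe, bases 1 to 30: cagtttagaacaggacaagtgcaacatcgc

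A transcript described as ring finger protein 4, RNF4, a SUMO-targeted ubiquitin ligase, disagreed with the probes that carry that symbol. The unnamed transcript (ENSECAT00000002028, chr1:141758446-141758505) read 2.19, 2.10, 2.41 and 2.15 (2.21 ± 0.14, SD, n = 4), and its other probe was called higher at 1.89 ± 0.15 (adjusted p = 1.45e-05). The 5 tiled probes with the symbol RNF4, on unplaced sequence, read -0.52 to -0.43 and all 5 were called lower (adjusted p of 0.00198 to 0.00988). Nearest to the unnamed transcript lay B2M, the light chain of MHC class I, at 10958 bases on the same strand, with 0.84 ± 0.31 (adjusted p = 0.00226). The description and the symbol name 2 sequences with ratios of opposite sign.
RNF4-described probe, bases 1 to 30: tgtagtcagtgcctctgtacttcccttaaa

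3 of the 187 rested on replicate 4. DN504031, a lymphocyte cDNA (chr6:34261390-34261449), read 0.82, 0.22, 0.46 and 9.47, and the spot at 9.47 was the only one among the 187 probes marked as non-uniform or an outlier by the scanner software; it was left out of the fit. A probe of the same cDNA shifted by 3 bases, which shares 57 of its 60 bases, read 0.26 ± 0.20. The capitals mark the bases both carry.
DN504031 probe among the 187, bases 1 to 30: aacTAACAAGCACTCCCTCTTTATCTAAGC
DN504031 probe shifted by 3 bases, bases 1 to 30: TAACAAGCACTCCCTCTTTATCTAAGCCAA
ARID1A, a chromatin remodelling subunit, read 0.87, 0.82, 1.14 and 5.40 at chr2:27224060-27224119, while a probe shifted by 1 base read 1.44 ± 0.69 and was called higher (adjusted p = 0.00436). Its capitals mark the 59 shared bases as far as they fall in the stretch shown.
ARID1A probe among the 187, bases 1 to 30: ATGAACTCATTGGTTTCACAAGTCATTTGT
ARID1A probe shifted by 1 base, bases 1 to 30: gATGAACTCATTGGTTTCACAAGTCATTTG
The undescribed probe A_69_P110922 read 0.56, 0.94, 0.41 and 6.61. Without replicate 4 these 3 had means of 0.50, 0.95 and 0.64, and the last 2 were also the only ones of the 187 not called.

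The remaining probes carried no gene in their description. They were 35 probes of 24 uncharacterized proteins, 45 probes of 20 cDNA clones, 32 probes of 21 contigs assembled from blood mononuclear cells, 2 RefSeq predictions and 20 probes with no description, with group medians of 3.17, 2.74, 3.51, 2.97 and 3.21. Of all unnamed probes of the array, 2.78% of those from the blood mononuclear cell assembly and 3.39% of those from blood leukocyte libraries were among the 187, against 0.486% from articular cartilage and 0.591% from placenta. The share was 1.20% for lymphocytes (6 of 499), 7.69% for monocytes (5 of 65) and 3.85% for liver (1 of 26). Tiled probes count singly in these shares, and the 17 blood leukocyte probes were of 6 transcripts. In all, 60 of the 187 came from sequence found in blood cells. These shares describe where the sequence entries were made and not the cells on the arrays. On a list of 13 leukocyte markers, 12 had probes and 4 passed the filter on dim probes: CD68 was called higher at 0.88 ± 0.20, while CD14, CD3D and MS4A1 lay between -0.16 and 0.20 and were not called. The 8 others, ITGAM, ITGB2, CSF1R, TYROBP, AIF1, LCP1, CD3E and CD79A, missed the filter. The summed signal of the 12 was 4540 to 6681 in Cy5 and 4055 to 4962 in Cy3, and its part in these results was not tested. Markers of muscle and fibroblasts moved too: of 6 tested skeletal muscle cell markers, 4 were called lower and 0 higher, with a median of -1.08 (MYF5 -1.49, MYH3 -1.38, DES -1.22 and CKM -0.93), while MYOG and MYOD1 were not called. Their summed signal was 37250 to 60610 in Cy5 and 105056 to 118895 in Cy3. Of 5 tested fibroblast markers, 4 were called higher and 0 lower, with a median of 0.76 (PDGFRA 1.49, DCN 0.77, THY1 0.76 and LUM 0.42), while COL1A2 was not called. Their summed signal was 274008 to 426668 in Cy5 and 283648 to 344942 in Cy3. 0 of 5 endothelial markers passed the filter. The part of these cell types in the results was not tested. In RNA from whole cultures, a change in the number of cells of a type and a change in RNA per cell cannot be told apart.

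By LOC number or RefSeq accession 19 of the 116 transcripts were found in the current RefSeq table (TB-T2T), of which 5 now have a symbol: RTP4, PLAC8B, MR1, CYP2C113 and CYP2C111. The last 2 are cytochrome P450 enzymes of the CYP2C family and were filed on the array as uncharacterized proteins. CYP2C113 (LOC100061579, chr1:33850197-33850256) read 3.21, 4.74, 4.02 and 2.93 (3.72 ± 0.82, SD, n = 4), at least 13.2-fold higher. Here the bound equals the computed fold change of 13.2, since the probe's own dim Cy3 signal set it. CYP2C111 (LOC100061542, chr1:33733115-33733174) read 2.80, 3.39, 3.27 and 2.12 (2.89 ± 0.58), at least 4.99-fold higher. Replicate 2 was the highest and replicate 4 the lowest array for both.

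The nearest probe with a gene symbol was sought for the 144 probes on placed chromosomes. The choice of the 187 did not use the ratios of these neighbours, but some can read the chosen signal again. The CXCL1 probe shares up to 43 bases with probes of the CXCL2 transcript. SOD2 and CCL2 probes carry the gene name of the unnamed transcripts beside them. The count of neighbours is thus not fully separate from the choice. Of the 144 probes, 106 had a neighbour within 50 kb, which came to 48 different symbols. 37 of these were tested, 25 were called higher and 1 lower, or 67.6% higher with a median log2 ratio of 1.74. Around the other unnamed probes, 226 of 2221 tested neighbours were called higher (10.2%), close to the 12.1% of all tested probes. The neighbour called lower was HINT3, beside NCOA7, at -0.49 ± 0.28. 7 of the 25 were on the list of interferon-induced genes, 4 on the list of NF-kB and inflammatory targets, and 14 on none of the lists. The lists are not complete: the 14 include the chemokine genes IL8, CCL11 and CCL13, beside others such as GDA and SCIN. Within 10 kb, 16 of 21 tested neighbours were called higher.

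In a split by strand within 2 kb, which was chosen after the values were seen, all 11 tested neighbours on the same strand were called higher, and 0 of 3 on the opposite strand. Just past 2 kb, however, SOD2 at 2118 bases and CCL13 at 2367 bases lay on the opposite strand and were called higher, so the split depends on the window. Around the other unnamed probes within 2 kb, 75 of 670 tested neighbours on the same strand (11.2%) and 12 of 147 on the opposite strand (8.16%) were called higher. The 11 on the same strand lay next to 13 of the 116 transcripts. IL8, a neutrophil chemokine also called CXCL8, lay 260 bases from contig JL628765, which read 4.63, 4.25, 4.38 and 4.26 (4.38 ± 0.18, SD, n = 4; chr3:37424493-37424552); the nearest IL8 probe read 7.60 ± 0.15 (adjusted p = 5.46e-07), and the brightest IL8 probe 5.25 ± 0.48 (adjusted p = 5.75e-06), so the IL8 probes disagreed in size. TNFSF13B, the B cell survival factor BAFF, lay 401 bases from contig JL618345 (3.78 ± 0.29) and read 3.88 ± 0.99. SCIN, an actin-severing protein, lay 583 bases from the cartilage cDNA CX598805 (4.32 ± 0.27, at least 14.3-fold) and read 3.68 ± 0.78. ZNFX1, a sensor of viral RNA, lay 921 bases from contig JL623546, whose 5 probes ran from 2.35 to 2.42, and read 2.76 ± 0.20.

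DDX58, the viral RNA receptor RIG-I, lay 1204 bases from a pair of undescribed probes on chromosome 23. A_69_P101691 (chr23:39514839-39514898) read 5.33, 5.21, 5.46 and 4.73 (5.18 ± 0.32), and A_69_P101692, adjoining it, 4.80 ± 0.27. The DDX58 probe read 3.61 ± 0.29 (SD, n = 4; adjusted p = 4.96e-06). SAMD9, an antiviral factor, lay 950 bases from A_69_P107336 (3.46 ± 0.27) and read 3.06 ± 0.22. GDA, guanine deaminase, lay 1013 bases from contig JL640051 (2.08 ± 0.44) and read 3.35 ± 0.50. N4BP2L1 lay 929 bases from contig JL618422 (2.32 ± 0.29) and read 1.16 ± 0.09. In each of these the unnamed and the named probe were above 0 on all 4 arrays.

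Further off, contig JL637534 (3.88 ± 0.31) lay 11746 bases from EPSTI1, which read 3.81 ± 0.34, and contig JL618615, with 3.22 ± 0.61 and at least 8.53-fold higher, lay near NMI, which read 2.34 ± 0.08. LOC100052508 (3.12 ± 0.14, at least 8.59-fold) lay 31331 bases from a probe of OASL, an antiviral oligoadenylate synthetase-like protein, that read 2.31 ± 0.20, while the brighter OASL probe used for the gene list read 0.31 ± 0.23; the OASL probes thus disagreed. 5 undescribed probes tiled over 64 bases of chromosome 22 (chr22:28406179-28406242) read 2.37 to 2.61 and lay nearest to TGM2, transglutaminase 2, at 1.45 ± 0.53.

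A lymphocyte cDNA and a contig on chromosome 14 marked a transcript that RefSeq lists as a long non-coding RNA (LOC102147598). The contig JL633627 (chr14:42349430-42349486) read 3.71, 3.85, 3.81 and 3.44 (3.70 ± 0.18, SD, n = 4), and the 4 probes of DN506272, which share 56 to 59 bases with it, ran from 3.64 to 3.69. Nearest to them, 12226 bases away and on the opposite strand, lay IRF1, a transcription factor of the interferon response, at 1.74 ± 0.11 (adjusted p = 1.23e-05). The ratio of the non-coding transcript lay above that of IRF1 on each of the 4 arrays.

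The CXC chemokine cluster of chromosome 3 held 9 of the 187 probes, of 4 transcripts, over 248 kb (chr3:37424493-37672091). Their log2 ratios ran from 4.38 to 7.15. Contig JL639438 (chr3:37503809-37503868), 415 bases from CXCL6, read 7.44, 7.47, 6.79 and 6.92 (7.15 ± 0.35), and CXCL6, a neutrophil chemokine, read 6.04 ± 0.52 (SD, n = 4; adjusted p = 4.62e-06). The uncharacterized protein ENSECAT00000012809 (chr3:37558276-37558335) read 6.73, 6.33, 6.03 and 5.52 (6.15 ± 0.51), at least 43.0-fold higher, with 2 further probes at 4.92 and 4.72. Of the 5 symbols tested in this stretch or just beside it, IL8, CXCL6, MIP-2BETA and CXCL1 were called higher, and PF4, a platelet chemokine, was not at 0.18 ± 0.24 (adjusted p = 0.184).

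The CC chemokine cluster of chromosome 11 (chr11:37263638-37331566) held 6 of the 187 probes, those of CCL1, CCL2 and BM734883. All 4 symbols tested in this stretch or near it were called higher: CCL2 at 4.28, CCL8 at 3.70, CCL11 at 3.41 and CCL13 at 2.93, with SDs of 0.18 to 0.39. The CCL2 symbol probe lay past the end of the stretch. On chromosome 1 (chr1:38223846-38335075), IFIT1, IFIT5, the undescribed probe A_69_P103336 and contig JL615952 lay around IFIT3, which read 4.48 ± 0.27 (adjusted p = 1.9e-06). The contig's 4 probes ran from 5.04 to 5.26, and the highest read 5.52, 5.07, 5.47 and 4.97 (chr1:38334956-38335015). A_69_P103336 read 3.43 ± 0.18.

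On chromosome 6 (chr6:17787873-18089342), 7 transcripts with 8 probes, 5 of them uncharacterized proteins and 2 contigs, read 2.13 to 3.37, with no tested symbol within 50 kb of the stretch. ENSECAT00000020839 read 3.62, 3.30, 3.26 and 3.31 (3.37 ± 0.17), and 5 of the 7 transcripts were well above background in Cy3 on all arrays. On chromosome 3 (chr3:7903714-8107940) 3 transcripts, LOC100051065 at 3.94, ENSECAT00000021972 at 3.63 and LOC100050764 at 3.24, likewise had no tested symbol around them. All 3 were at background in Cy3, and were at least 7.31-fold, 4.49-fold and 3.26-fold higher. The last 2 share 42 bases, of which 30 are shown, so signal from one could be read on the other.
LOC100050764 and ENSECAT00000021972 probes, bases 19 to 48 of the first: AAGAGGAGATCAAACTCAGCAAGATGGTGA

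On unplaced sequence, where neighbouring positions need not be neighbours in the genome, 43 of the 187 probes were found. LOC100050719, a protein without a name, had 5 tiled probes at 3.12 to 3.30, the cDNA CD465069 (LOC100050560 in RefSeq) 4 at 2.52 to 2.63, and both were well above background in Cy3. The undescribed probe A_69_P103211 read 6.07, 5.47, 5.82 and 5.87 (5.81 ± 0.25), at least 15.8-fold higher. Contig JL618207 read 5.06 ± 0.28 with Cy3 well above background on all arrays, and JL639810 5.04 ± 0.62, at least 8.42-fold higher.

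Several transcripts had no called neighbour. LOC100630090 on chromosome 6 (chr6:36802240-36802299) read 5.25, 5.10, 5.45 and 4.83 (5.16 ± 0.26, at least 8.63-fold), and its nearest symbol, KLRB1, was not tested. LOC100052081 on chromosome 5 was measured by a contig at 4.89 ± 0.27 and by an Ensembl transcript at 4.79 ± 0.43, all 4 probes with Cy3 well above background. The leukocyte cDNA CD469934 read 4.89 ± 0.42, at least 20.7-fold, beside NANS, which was not called at 0.05 ± 0.06. PLAC8 lay beside COPS4 at -0.19 ± 0.13, and ABI3BP beside TFG at -0.04 ± 0.05, both on the opposite strand and not called.

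The leukocyte cDNAs CD465796 and CD468788 and the placental cDNA DN510508 had 5 tiled probes each. CD465796 (chr3:3581501-3581564) ran from 2.53 to 3.37, at least 2.94-fold higher for the top probe, with the nearest symbol, NOD2, not tested. CD468788 (chr11:17174686-17174750) ran from 2.75 to 3.96, and its highest probe had an SD of 0.90 and Cy3 well above background on 1 array. DN510508 (chr11:1774596-1774659) ran from 3.04 to 3.93 and was at background in Cy3 for all 5, with the highest at least 4.25-fold higher. The spread among overlapping probes of 1 cDNA, over 0.8 log2 units in all 3, was wider than the 0.24 between the 5 DHX58 probes, which were well above background in both channels.

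The size of the ratios depended on how dim signals were treated. With normexp background correction and loess, 89 unnamed probes reached a log2 ratio of 2 and the median of the 187 was 1.67. All 187 stayed above 0, but only 129 of them above 1, and the lowest was 0.08.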

How the data were processed

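Satellite cell cRNA was measured on 4 two-colour horse arrays (4x44K format) that share 1 slide. Per the file headers, the authors' scanner files came from Agilent Feature Extraction 10.10.1.1, which subtracted background, corrected dyes by a linear and lowess fit, and wrote spot intensity, flags and the log10 ratio of Cy5 over Cy3; coordinates carry the build name EquCab1. The deposited log10 ratios were turned into log2 ratios, and the authors' value table, also log10, held the same values. Array number, not read depth, limits precision.

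The members and gene lists were chosen with earlier results of these data known. Spots of 1 probe were averaged. limma 3.58.1 (R 4.3.3) tested probes whose Cy5 or Cy3 signal was flagged well above background on every array and that kept a ratio on 3 or more, without marked spots, with Benjamini-Hochberg adjustment over all 24669 tested probes. A call needed an adjusted p of at most 0.05 and a fold change of at least 1.3. The methods' thresholds were kept and their t-test was an alternative, as were treat, other background correction and scaling, other filters and leaving out each array. The limma step was tested on simulated data. Neighbours were the nearest probes with a symbol on a placed chromosome within 50 kb (Python 3.11.15). Probes were named by these rules: a gene in the description, the 12 highest transcripts, 3 or more probes in a transcript or within 10 kb, 3 on each side of the threshold, and their neighbours; those outside them were chosen after their values were seen. Names were updated by LOC number or accession from RefSeq. Strand was read from the order of the deposited coordinates.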

Additional observations from a re-analysis of the deposited data

Results flagged for a closer look

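In 12 of the 187 probes, of 11 transcripts, 1 array stood far from the other 3 by Dixon's ratio at the 95% level; chance flags about 1 in 20 groups of 4. Replicate 4 was the distant array in 9 of the 12. Of these, 3 rested on replicate 4 for their place among the 187: DN504031 at 9.47 there against 0.22 to 0.82, A_69_P110922 at 6.61 against 0.41 to 0.94, and ARID1A (ENSECAT00000019681) at 5.40 against 0.82 to 1.14. A probe of DN510508 was also highest there, at 3.93 against 2.81 to 3.00.

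Replicate 4 was lowest for A_69_P103336 at 3.16 against 3.52 to 3.54, for a CD468788 probe at 1.24 against 3.15 to 3.41, for 2 overlapping DN506272 probes at 3.32 and 3.35 against 3.72 to 3.81, and for BM734883 at 2.86 against 3.34 to 3.42. In replicate 3, NCOA7 (ENSECAT00000015085) was high at 2.74 against 2.08 to 2.17, and a probe of ENSECAT00000012809 low at 4.65 against 4.98 to 5.02. In replicate 1, ENSECAT00000020839 was high at 3.62 against 3.26 to 3.31. The part of replicate 4 in these values was not tested.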

How the results depend on the processing

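The number of unnamed probes meeting the rule was 89 with normexp and loess, 101 with loess alone, 98 with both channels well above background, 284 at a threshold of 1.5 and 180 to 218 when 1 array was left out, against 187. The median log2 ratio of the 187 was 1.67 with normexp and 2.15 with loess alone, and 3.07 to 3.22 without 1 array. Over all tested probes 3539 were called with normexp, 4440 with loess alone, 2822 by treat, 5030 by the methods' t-test and 6667 to 7364 without 1 array, against 7046. Of the 187, 98 were called with both channels well above background, since the others were not tested there. Neighbours called numbered 16 within 10 kb, 11 within 2 kb and 25 to 27 without 1 array, against 26. Other probes of the same transcripts called higher numbered 14 with normexp, 11 with both channels well above background and 21 to 29 without 1 array, against 22. Probes with Cy3 undetected on all arrays numbered 6 by the significance flag, against 59. Median-centred, lowess-free ratios moved 37 single probes beyond their SD, loess alone 127 and normexp 149, and none reversed; 1 probe of JL620306 gave no median-centred ratio. The cause was not tested. No paired analysis was possible because each array gives 1 ratio of both groups.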
